A study of Mus musculus with 76 samples.

Results

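Single macrophages from the atrioventricular (AV) node of the mouse heart were divided by their level of Egr1, and the other transcripts of the cells with much Egr1 were compared with those of the cells with little. The AV node is the tissue that passes the electrical impulse from the atria to the ventricles. All cells were wild-type (WT), of strain C57BL/6J, with no treatment named; the labels give neither age nor sex and do not say how many animals, chips or batches the cells came from. Node tissue was minced and digested with collagenases, DNase and hyaluronidase for 20 min at 37 °C, and living macrophages were sorted by CD11b, CD45, F4/80 and at most intermediate Ly6C, without cells carrying lineage markers, and captured singly. Cells were selected on the measured Egr1 level itself, in CPM, the counts of a gene per 1000000 counts of its library. A cell at 1000 CPM or more was called Egr1-high and a cell below 100 CPM Egr1-low. Transcriptomes 13 and 19 gave almost the same values (Pearson's r over genes 0.978, where the remaining 2849 pairs of libraries reached 0.421 at most) and were averaged as 1 cell. Of 75 cells, 38 were Egr1-high and 25 Egr1-low, so that 63 were compared, and 12 lay between and were left out.

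Egr1 is an immediate early gene, 1 of a set that cells transcribe within minutes of a stimulus without making new protein first. Signals through the kinases ERK, p38 and JNK activate factors already bound at these genes, such as SRF with its ELK partners at CArG boxes and CREB at cyclic AMP response elements (CRE). The first products are transcription factors, among them EGR1 and the FOS and JUN subunits of AP-1, and feedback regulators such as DUSP1, a phosphatase of these kinases, and ZFP36, which speeds the decay of short-lived mRNAs. Macrophages make the same set when they meet microbial products or damage, and enzymatic digestion of tissue is known to induce it in many cell types. Since every cell had been digested and sorted, transcripts made in the tissue and those made during preparation cannot be told apart here.

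The labelled cell type was matched by its markers in both groups. Of 20 macrophage markers listed, 19 had values, and 0 of 19 differed by the size rule given below, beside 0.527% of all genes higher and 0.563% lower. So few genes pass that a count of 0 in a list this short says little. Lyz2, which encodes lysozyme, ran from 1793 CPM through a median of 19450 to 51410 CPM in the Egr1-high cells and from 12072 through 24142 to 50583 CPM in the Egr1-low cells. Csf1r, a growth factor receptor that macrophages depend on, had medians of 2807 and 1815 CPM. Markers of 12 other cell types, 99 genes in all, had values for 20 genes, and 0 of the 16 compared passed the size rule, a count that says as little. Their summed level was 212 to 8249.8 CPM in the Egr1-high cells (median 3735) and 77.9 to 9028 CPM in the Egr1-low cells (median 2942). The platelet marker Pf4, which macrophages also express, had medians of 1657 and 1680 CPM, and the B cell marker Ighm had medians of 359.5 and 127 CPM. The summed neutrophil and endothelial markers had a median of 0 in both groups. All 4 dendritic cell markers compared had differences above 0, with a median of 0.67. Summed, the dendritic cell markers had medians of 25.45 CPM in the Egr1-high cells and 2.7 CPM in the Egr1-low cells. Of all 16 markers compared, 9 had differences above 0 and 7 below. Whether other cells had a part in the differences was not tested. Depth and detection moved with the groups: the median cell had an estimated 2103240 reads and 2988 genes above 0 among the Egr1-high cells, and 2733020 reads and 3454 genes among the Egr1-low cells. With every cell thinned to 250000 reads, 0 cells being shallower, the medians were 1991 and 2290 genes.

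The division by Egr1 is a description, since it chose the cells. Egr1 ran from 1062 to 10769 CPM in the Egr1-high cells, with a median of 4273 CPM. It ran from 0 to 57.8 CPM in the Egr1-low cells, with a median of 5 CPM. Just inside the upper limit lay cells at 1062, 1106 and 1143 CPM, and just outside it cells at 962.5, 957.9 and 913.5 CPM, so the upper limit divides a continuous run of cells. The lower limit fell in a gap, with the highest Egr1-low cells at 57.8, 27.8 and 21.5 CPM and the lowest cells between at 273.3 and 283.3 CPM.

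**Figure D1:**
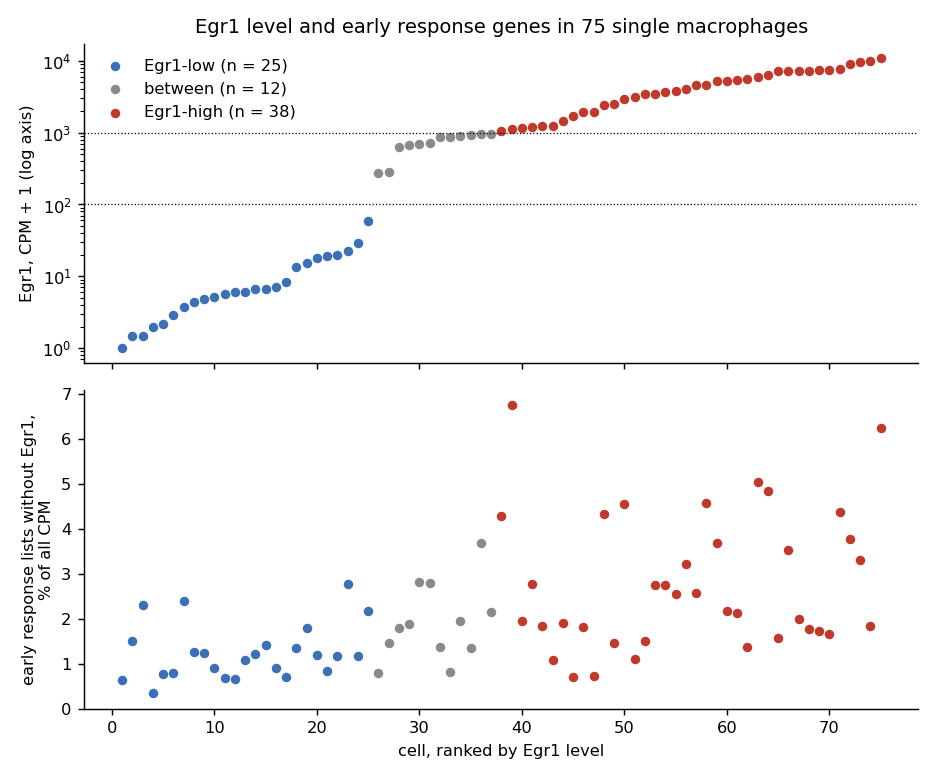
Top, Egr1 (CPM + 1, log axis) in each of 75 cells ranked by Egr1, with dotted lines at 1000 and 100 CPM; bottom, the share of all CPM taken by the 4 early response lists without Egr1 in the same cells. Each point is 1 cell; that share lies between 0.701 and 6.76% in the Egr1-high cells (red) and between 0.358 and 2.76% in the Egr1-low cells (blue), and the ranges overlap.

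Genes above 0 in at least 8 of the 75 cells were compared, 8350 without Egr1. A gene passed the size rule where the difference of mean log2(CPM + 1), Egr1-high minus Egr1-low, was at least 2 in size and the ratio of mean CPM was at least 2 in the same direction. This is a rule of size and no test: cells of 1 sample are not replicates, and no p-value was computed. Of all genes compared, 44 (0.527%) passed the rule higher in the Egr1-high cells and 47 (0.563%) passed it lower. The median difference over all genes was -0.08, with the 5th percentile at -1.34 and the 95th at 0.95. For single genes another measure is given, the percentage of the pairs of 1 Egr1-high and 1 Egr1-low cell in which the Egr1-high cell was higher, with ties shared equally.

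Of the 44 genes that passed higher, 17 belonged to the immediate early response. The 4 early response lists held 87 genes, of which 71 had values and 69 were compared, and 17 of the 69 passed the size rule higher, beside 0.527% of all genes. In the lower direction 0 of 69 passed, beside 0.563% of all genes. The difference was above 0 for 51 of the 69 and below 0 for 18, and its median was 0.61, against -0.08 over all genes. With every cell thinned to 250000 reads 18 early genes passed higher, beside 43 of all genes (0.675%). Among the cells with fewer genes detected 13 did, beside 155 of all genes (1.86%), and among those with more 18 did, beside 207 (2.48%). Dividing all cells at the median of Egr1 gave 9 early genes of 26 higher in all, and a pseudocount of 10 in place of 1 gave 9 of 13. Together these genes, without Egr1, took 0.701 to 6.76% of a cell's CPM in the Egr1-high cells (median 2.36%), 0.803 to 3.69% in the cells between (median 1.84%) and 0.358 to 2.76% in the Egr1-low cells (median 1.18%). An Egr1-high cell had 12 to 29 early genes at 100 CPM or more (median 20), and an Egr1-low cell 6 to 31 (median 14). Each cell of both groups thus held some early genes at 100 CPM or more, not always the same genes, and the ranges of the groups overlapped.

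Among the AP-1 subunits and partners, 6 of 11 passed the size rule, all higher, and the list's median difference was 2.50. Fos, the main partner of JUN in AP-1, ran from 2 through a median of 2293 to 19992 CPM in the Egr1-high cells and from 0.3 through 266 to 4410.4 CPM in the Egr1-low cells. It reached 100 CPM in 36 of 38 Egr1-high cells (94.7%, exact Clopper-Pearson 95% interval 82.3 to 99.4%) and in 14 of 25 Egr1-low cells (56.0%, 34.9 to 75.6%). The intervals cover the sampling of cells only. All but a pair of the Egr1-high cells thus held Fos at that level, while the Egr1-low cells were spread from near 0 to 4410.4 CPM. Its difference was 3.99 on the log2 scale, its ratio of means 4.39, and the Egr1-high cell was higher in 83.8% of pairs.

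Atf3, a repressor of the ATF/CREB family that stress and microbial signals induce, ran from 0 through 482 to 6409.6 CPM in the Egr1-high cells. In the Egr1-low cells it ran from 0 through 2.1 to 643 CPM. Most Egr1-low cells were thus near 0, and the groups overlapped up to 643 CPM. Atf3 reached 100 CPM in 25 Egr1-high and 5 Egr1-low cells, with a difference of 4.72 and a ratio of 15.5. Jun, the central AP-1 subunit, had medians of 541 and 144 CPM and reached 100 CPM in 32 and 14 cells, with a difference of 2.50 and a ratio of 2.22. It no longer passed the rule without transcriptome 39, an Egr1-high cell. Junb, a JUN relative that dampens its activity, had medians of 37.5 and 0.7 CPM, with a difference of 3.09 and a ratio of 3.26. Fosb and Fosl2, paralogs of Fos, were at 100 CPM or more in 10 and 16 Egr1-high cells and in 0 and 4 Egr1-low cells, with differences of 2.86 and 2.82. The other members compared, Jund, Batf, Batf3, Mafg and Mafk, had differences between -0.16 and 0.26.

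Of 20 genes listed under other immediate early transcription factors, 3 passed the size rule, higher, with a list median of 0.63. Ier3, a member of the list that is not itself a transcription factor, guards against apoptosis and is induced by NF-kB and stress. It ran from 0.5 through 315 to 2245 CPM in the Egr1-high cells and from 0 through 0.4 to 1687 CPM in the Egr1-low cells. The level of 100 CPM was reached in 26 and 8 cells, with a difference of 3.98 and a ratio of 2.96. Ier3 was thus near 0 in most Egr1-low cells, and the highest of them overlapped the Egr1-high cells. Egr2, a paralog of Egr1, reached 100 CPM in 11 Egr1-high cells and in 0 Egr1-low cells, whose highest value was 79.8 CPM. Its median was 0.25 CPM in the Egr1-high cells, so that most cells with much Egr1 held hardly any Egr2. Irf1, a factor of the interferon response, had medians of 92.3 and 1.6 CPM, with a difference of 2.48 and a ratio of 4.32. Klf2, Nr4a1, Klf4 and Ier2 had differences of 1.88, 1.85, 1.80 and 1.62, short of the rule. Klf6, a zinc finger factor at 100 CPM or more in 30 and 21 cells, had medians of 1445 and 1067 CPM and a difference of 0.21. Myc was at -1.57.

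Of 22 feedback regulators compared, 6 passed the rule, all higher, and the list median was 0.63. Ppp1r15a (GADD34), which steers a phosphatase to eIF2-alpha and so restores translation after stress, ran from 0 through 153 to 5296 CPM in the Egr1-high cells and from 0 through 0.8 to 2395 CPM in the Egr1-low cells. Its difference was 4.81 and its ratio 4.56, and it reached 100 CPM in 23 and 5 cells. In the Egr1-low cells it was therefore mostly near 0, and its highest cells overlapped the Egr1-high cells. Zfp36 ran from 1.7 through 794 to 8067 CPM and from 0 through 51.4 to 2736 CPM, with a difference of 3.87 and a ratio of 4.59. Dusp1 ran from 0.5 through 629 to 7437 CPM and from 0 through 36.5 to 1888 CPM, with a difference of 3.21 and a ratio of 4.64. Both were present in some cells of each group, with wide spread within each group. Btg2, an antiproliferative cofactor of mRNA deadenylation, had medians of 2013 and 425 CPM and was at 100 CPM or more in 31 and 17 cells, with a difference of 2.27 and a ratio of 3.23. Its relative Tob1 (difference 2.42) and the growth arrest gene Gadd45b (2.63) passed the rule as well. At the other end of the list were Zfp36l2, a relative of Zfp36, at -1.39, and Nab1, a corepressor that binds EGR1, at -1.30.

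Of the 16 other early response genes, 2 passed the rule, both higher, and the list median was 0.31. Cd83, a surface protein that stabilises MHC class II on activated cells, had medians of 273 and 0.9 CPM and a difference of 3.75, but its ratio of 2.03 lay at the limit and fell below it when any of 28 cells was left out.

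**Figure D2:**
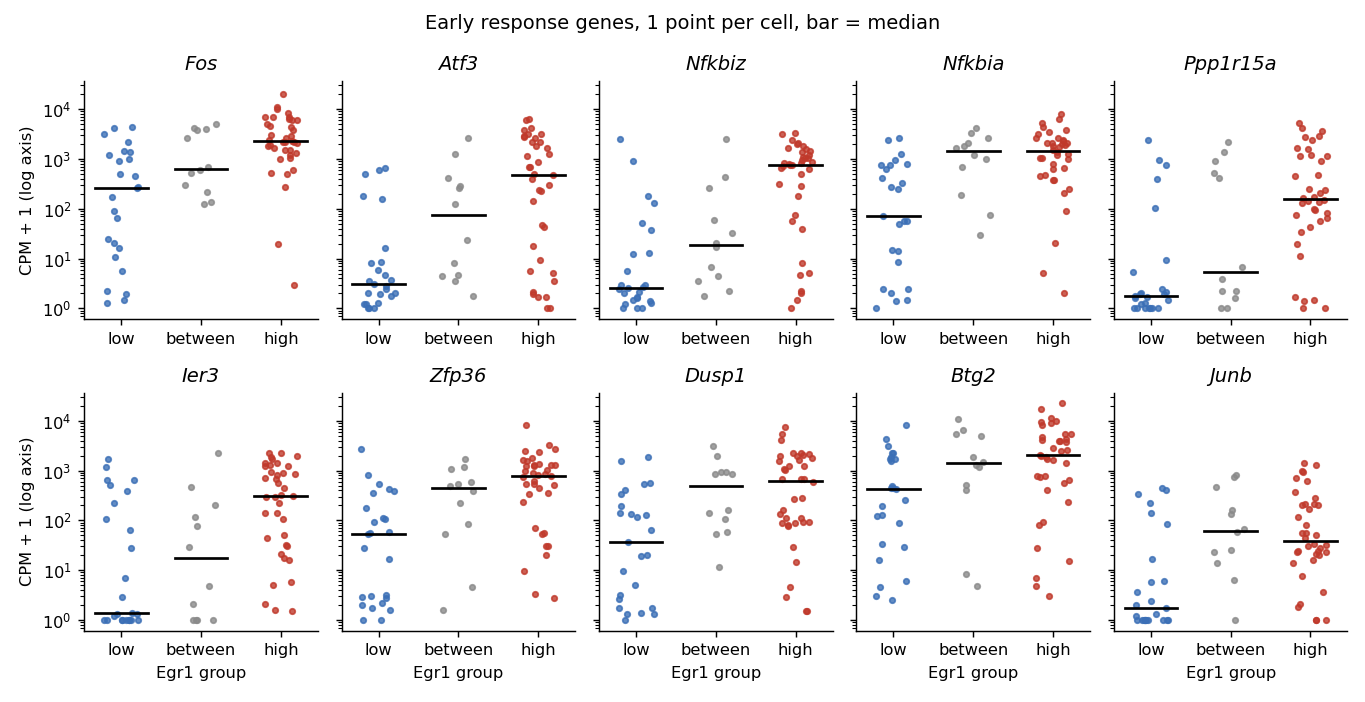
Levels of 10 early response and NF-kB feedback genes (CPM + 1, log axis) in the 25 Egr1-low, 12 intermediate and 38 Egr1-high cells; each point is 1 cell and each bar the group's median. In every panel the Egr1-high median lies above the Egr1-low median and the points of the groups overlap.

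The sequence just before the start of these genes is where the factors named above are known to bind, so the promoters of the early genes past the rule were searched. Of the 17 genes, 15 had a promoter in the RefSeq table (GRCm38.p6), 20 promoters in all, of which some of 1 gene overlap, and the 250 bases before each start were read on both strands. A CArG box (the 10-base site of SRF) was found for Egr2 and Zfp36, the CRE TGACGTCA for Btg2, Dusp1 and Ppp1r15a, and the EGR site GCGNGGGCG for Btg2, Fosb, Fosl2, Gadd45b, Irf1 and Zfp36. The TATA box TATAAA was found for Fos, Gadd45b and Tob1, and the AP-1 site TGANTCA in 0 of the 20. By gene these were 2 of 15 for CArG, 3 of 15 for CRE, 6 of 15 for EGR, 3 of 15 for TATA and 0 of 15 for AP-1. By promoter the shares were 25% for CArG, 15% for CRE, 30% for EGR, 15% for TATA and 0% for AP-1. The CArG share is 5 promoters of only 2 genes, so promoters of the same gene raise it. Over all 32851 promoters in the table the shares were 1.47%, 1.55%, 4.70%, 12.4% and 6.75%, and over the 7264 promoters of compared genes 1.14%, 2.73%, 8.77%, 6.58% and 4.46%. A match describes letters and is not a bound site. Nor does a missing match, for Fos or any other gene, mean a missing site. Sites farther than 250 bases from the start, or with letters other than those given, were not counted. The 4 promoters printed, 5′ to 3′ on the gene's strand and ending at the base before the start, are those with a match among the 6 genes with the largest differences of the 15 early genes with a promoter in the table; Atf3 and Ier3, the other two, held none of these 5 motifs. Capitals mark a CRE in Ppp1r15a and Dusp1, the TATA box in Fos, and in Zfp36 first the EGR site and then the CArG box, which do not overlap.
Ppp1r15a (chr7:45526269-45526518, minus strand): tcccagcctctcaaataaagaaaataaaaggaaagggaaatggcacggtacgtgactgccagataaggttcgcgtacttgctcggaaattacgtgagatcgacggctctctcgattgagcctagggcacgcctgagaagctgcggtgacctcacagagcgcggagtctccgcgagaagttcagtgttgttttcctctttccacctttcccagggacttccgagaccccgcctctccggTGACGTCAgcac
Dusp1 (chr17:26508473-26508722, minus strand): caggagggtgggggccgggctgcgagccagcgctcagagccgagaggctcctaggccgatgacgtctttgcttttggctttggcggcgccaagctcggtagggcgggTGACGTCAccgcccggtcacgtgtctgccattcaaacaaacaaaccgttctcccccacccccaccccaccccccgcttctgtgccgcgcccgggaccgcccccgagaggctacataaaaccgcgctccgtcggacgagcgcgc
Fos (chr12:85473640-85473889, plus strand): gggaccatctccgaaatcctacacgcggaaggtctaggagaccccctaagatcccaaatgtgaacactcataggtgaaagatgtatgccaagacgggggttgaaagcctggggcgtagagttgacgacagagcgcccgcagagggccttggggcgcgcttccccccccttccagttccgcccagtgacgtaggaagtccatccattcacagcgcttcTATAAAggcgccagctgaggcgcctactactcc
Zfp36 (chr7:28379229-28379478, minus strand): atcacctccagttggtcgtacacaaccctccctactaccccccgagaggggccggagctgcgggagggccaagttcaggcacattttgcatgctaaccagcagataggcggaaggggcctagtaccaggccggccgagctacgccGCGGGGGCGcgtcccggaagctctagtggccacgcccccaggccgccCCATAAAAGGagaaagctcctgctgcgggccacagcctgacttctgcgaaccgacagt

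The capitals lie 12 to 5 bases before the start in Ppp1r15a, 143 to 136 bases before it in Dusp1 and 33 to 28 bases before it in Fos. In Zfp36 the EGR site lies 105 to 97 bases and the CArG box 58 to 49 bases before the start.

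The genes of the signalling steps upstream are listed apart. Of 19 genes on the path from ERK to SRF, 0 passed the rule in either direction, beside 0.527% of all genes higher and 0.563% lower. Their median difference was -0.39. Rps6ka3, a kinase that ERK activates, was at -1.58 and Shc1, an adaptor of growth factor receptors, at 1.28. Of 13 genes of the p38 and JNK pathways 0 passed, with a median of -0.12. Map3k1, a kinase that activates JNK, had medians of 855 and 399 CPM and a difference of 1.33. These kinases are switched on by phosphorylation, which transcript levels do not show. Of 15 adhesion and cytoskeleton genes that SRF controls with its other partners, 0 passed and the median was -0.25, with Tagln2 at -1.67 and Zyx at 1.20.

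The largest difference of the genes that passed higher and were above 0 in at least 20 cells was that of an NF-kB inhibitor. Nfkbiz, an atypical nuclear inhibitor of NF-kB that opens secondary response genes, ran from 0 through 774 to 3332 CPM in the Egr1-high cells and from 0 through 1.6 to 2550 CPM in the Egr1-low cells. It was at 100 CPM or more in 28 and 4 cells, with a difference of 5.31, a ratio of 5.85 and 84.2% of pairs. Most Egr1-high cells thus held Nfkbiz at 100 CPM or more, and all but 4 Egr1-low cells were below 100 CPM. Nfkbia, which encodes the inhibitor that NF-kB induces to end its own activity, had medians of 1426 and 70.7 CPM, with a difference of 3.67 and a ratio of 3.98. These were the only members past the rule of the 16 compared, whose median was 0.15. Rela, the main activating subunit, was at -1.74 with medians of 0 and 1.2 CPM, and Nfkb1, another subunit, at 0.63. Among 17 chemokines and cytokines Cxcl2, which attracts neutrophils, passed the rule higher (difference 2.13) and Cxcl16 lower (-2.02), and leaving out any of 11 cells for Cxcl2, or any of 33 for Cxcl16, put the gene below the rule. Tnf and Il1b, the classical products of activated macrophages, were at 100 CPM or more in 4 and 2 Egr1-high cells and in 0 and 4 Egr1-low cells.

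Stress programmes that digestion and handling are also known to touch had 0 to 2 members each past the rule higher, beside 0.527% of all genes. The heat shock list, with 1 of 24, and the oxidative stress list, with 2 of 20, had larger shares than that. So did the list of nuclear RNA bodies and splicing, with 1 of 15. Of 24 heat shock proteins and chaperones, Dnajb1, a partner of HSP70, passed the rule. A count of 11 Egr1-high and 2 Egr1-low cells held it at 100 CPM or more, with a difference of 2.53, while the inducible Hspa1a was at 0.45 and Hsp90ab1 at -0.70, and the list median was 0.12. Of 20 oxidative stress genes Hmox1, which degrades heme, and Mt1, a metallothionein, passed, with differences of 2.49 and 2.17 and a list median of 0.06. Mt1 no longer passed without any 1 of 4 Egr1-low cells, transcriptomes 25, 52, 54 and 58. Of 16 genes of the unfolded protein and integrated stress response 0 passed higher and Sdf2l1, a chaperone cofactor of the endoplasmic reticulum, passed lower at -2.05, which leaving out any of 28 cells put below the rule. Atf4, the factor at the centre of the integrated stress response, was at 0.28. Of 16 hypoxia and glycolysis genes 0 passed, with a median of -0.32, and of 15 genes of nuclear RNA bodies and splicing 1 did, the splicing kinase Clk4 at 2.56, with the long noncoding RNA Neat1 at 1.31.

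**Figure D3:**
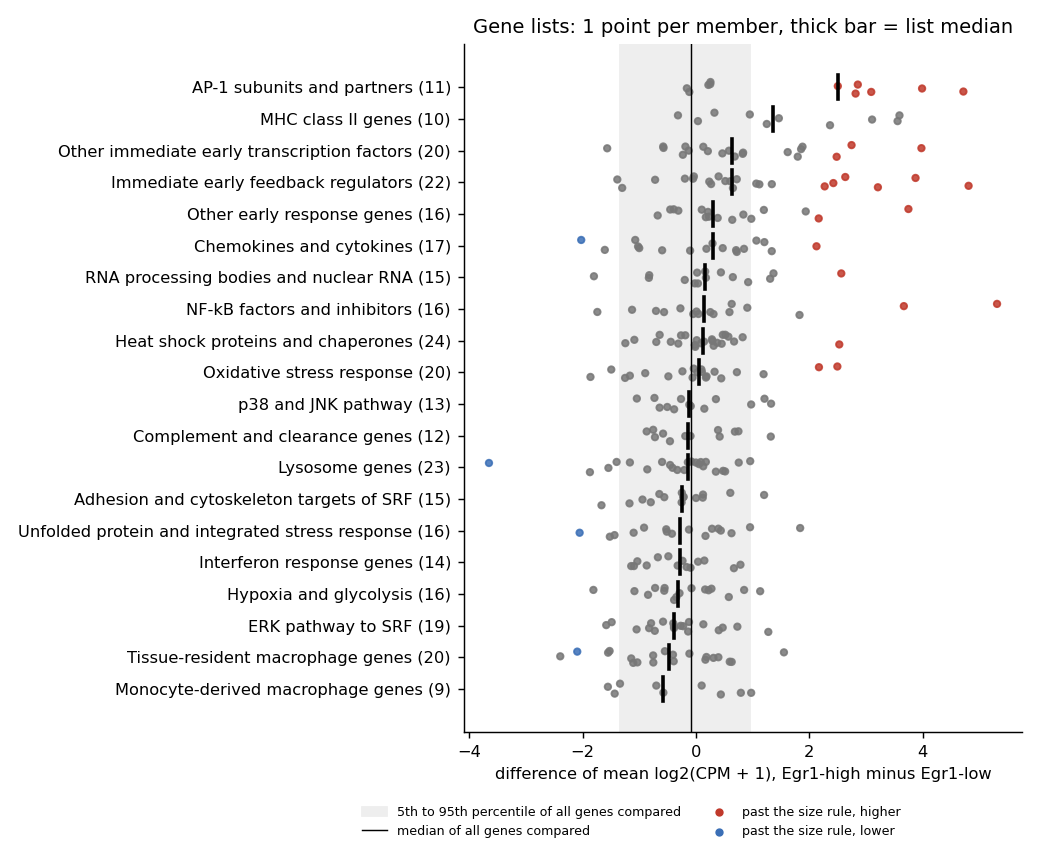
Difference of mean log2(CPM + 1), Egr1-high minus Egr1-low, for each compared member (point) of 20 gene lists, with the number of members in brackets and the list median as a thick bar; red and blue points passed the size rule higher and lower, the grey band spans the 5th to 95th percentile of all 8350 genes and the thin line is their median. The AP-1 list has the highest median, 2.50, and the MHC class II list follows at 1.36 with 0 members past the rule.

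Beyond the early lists, 20 of the 44 genes that passed higher were in none of the lists. Sertad1, a cofactor of cyclin-dependent kinase and E2F activity, ran from 0 through 135 to 2163 CPM in the Egr1-high cells and from 0 through 0 to 825 CPM in the Egr1-low cells, with a difference of 4.35. Sertad1 reached 100 CPM in 19 and 2 cells. Slc38a2, an amino acid transporter, had medians of 54.1 and 3.3 CPM and a difference of 3.09, and Kdm6b, the histone demethylase that inflammatory signals induce in macrophages, 57.4 and 0.9 CPM and 2.53. Vps35, a subunit of the retromer that sorts endosomal cargo, was at 2.77 and Swap70, an actin-binding protein of immune cells, at 2.45. Thumpd3, which takes part in tRNA methylation, reached 100 CPM in 10 Egr1-high cells and was at most 1 CPM in the Egr1-low cells. Of the 44, 30 stayed past the rule whichever single cell was left out.

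The 47 genes that passed lower included 4 members of any list and 43 genes in none, and 21 of them stayed past the rule whichever single cell was left out. Their number was 4 with a pseudocount of 10 and 71 without transcriptome 52, an Egr1-low cell. Ncf1, the cytosolic organiser of the phagocyte NADPH oxidase, ran from 0 through 0 to 3245 CPM in the Egr1-high cells and from 0 through 62.4 to 1289.6 CPM in the Egr1-low cells. It was at 100 CPM or more in 2 and 11 cells, with a difference of -3.88 and a ratio of 0.46, and fell short of the rule without transcriptome 54, 58 or 83. Ctsd, the lysosomal aspartic protease cathepsin D, had medians of 14.95 and 631 CPM and a difference of -3.65, but its ratio of 0.49 no longer met the rule when any of 34 cells was left out. Both groups held cells with Ctsd at 1000 CPM or more, and 14 of 38 Egr1-high and 20 of 25 Egr1-low cells were at 100 CPM or more. Complex I subunits of the respiratory chain, Ndufa11 and Ndufs4, were at -3.25 and -2.69, the mitochondrial import factor Grpel1 at -2.92, the kinase of the Hippo pathway Lats2 at -2.61 and the actin-severing factor Dstn at -2.59. Anxa6, a calcium-dependent membrane-binding protein, was at -3.23 and fell short without transcriptome 24 or 43. Of 23 lysosome genes, 1 passed lower and 0 higher, beside 0.563% and 0.527% of all genes, with a median of -0.14.

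Of the MHC class II, resident and monocyte-derived macrophage genes compared, 1 passed the rule, the resident gene Timd4, beside 0.527% of all genes higher and 0.563% lower. MHC class II genes, which present antigen to T helper cells, had differences above 0 for 9 of 10 members, beside 3583 of all 8350 genes, and a median of 1.36, and 0 of 10 passed. H2-Aa, the alpha chain of I-A, ran from 4.8 through 8735 to 44379.5 CPM in the Egr1-high cells and from 0 through 105 to 29647 CPM in the Egr1-low cells, with a difference of 3.56 and a ratio of 1.84. It was at 100 CPM or more in 30 of 38 Egr1-high cells and in 13 of 25 Egr1-low cells. Cells rich in H2-Aa and cells near 0 occurred in both groups, and the groups differed in how many of each they held. Cd74, the invariant chain that guides class II molecules to the endosome, had medians of 20657 and 1348 CPM and a difference of 3.59, with a ratio of 1.79. Of 53 cells with H2-Aa at 100 CPM or more, 30 were Egr1-high, 10 between and 13 Egr1-low, and of the 22 below, 8, 2 and 12.

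The 20 resident macrophage genes had a median of -0.48, with 13 of 20 below 0, beside 4767 of all 8350 genes. Lyve1, the hyaluronan receptor of perivascular resident macrophages, ran from 0 through 61.8 to 6154 CPM in the Egr1-high cells and from 1.4 through 718 to 6709 CPM in the Egr1-low cells, with a difference of -2.39 and a ratio of 0.62. It was at 100 CPM or more in 18 of 38 and 18 of 25 cells. Timd4, the phosphatidylserine receptor TIM-4 of long-lived resident cells, was at -2.09 and passed the rule, but no longer did without any 1 of 9 Egr1-low cells. Igf1, a growth factor of resident macrophages, was at 1.55, opposite in sign to the list's median. Ccr2, the chemokine receptor of monocyte-derived macrophages, was at 100 CPM or more in 12 of 38 and 8 of 25 cells, and 0 of 9 genes of that list passed, with a median of -0.57. Of 14 interferon response genes and 12 complement and clearance genes 0 passed in either direction, beside 0.527% of all genes higher and 0.563% lower.

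**Figure D4:**
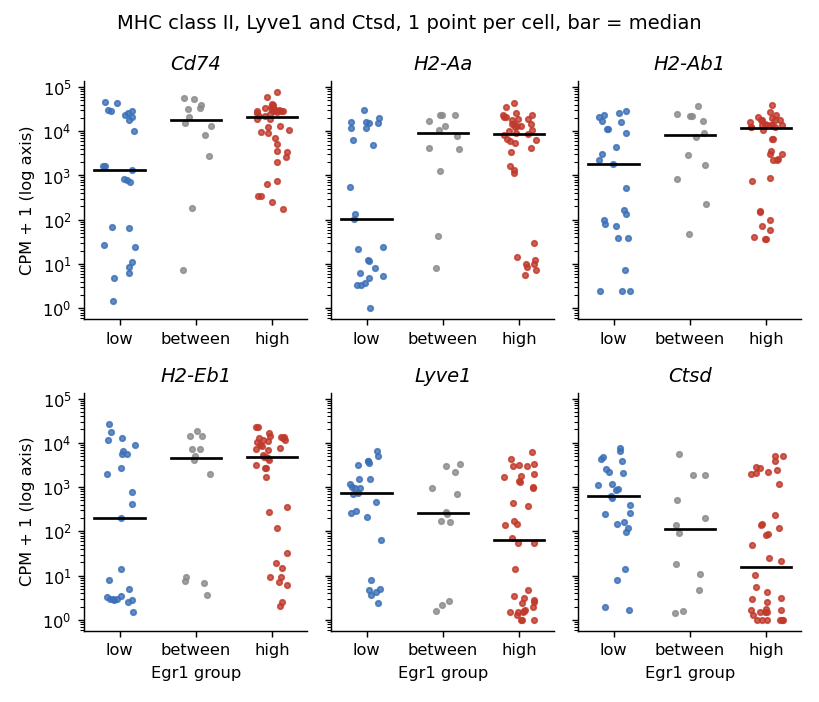
Levels of 4 MHC class II genes, Lyve1 and Ctsd (CPM + 1, log axis) in the Egr1-low, intermediate and Egr1-high cells; each point is 1 cell and each bar the group's median. H2-Aa medians are 105 CPM in the Egr1-low and 8735 CPM in the Egr1-high cells, Lyve1 medians 718 and 61.8 CPM, and both groups hold cells near 0 and cells at 1000 CPM or more for both genes.

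Because the share of cells with H2-Aa at 100 CPM or more was not the same in both groups, the early genes were compared once more among cells with H2-Aa at 100 CPM or more, 30 Egr1-high and 13 Egr1-low, a choice made after the values were seen. Among them 16 of the 69 early genes passed the rule higher, beside 63 of all 8350 genes (0.754%), and 180 of all genes (2.16%) passed it lower. Nfkbiz had a difference of 5.31 there, Ier3 4.91, Atf3 4.86, Ppp1r15a 4.29 and Fos 3.48. Btg2 was at 1.88 and Irf1 at 1.72, both below the rule, and Ctsd and Ncf1 were at -2.84 and -3.94. Cd74 was at 0.51 and H2-Aa at 1.01 in these cells. Apart from Btg2 and Irf1, the early and NF-kB genes named here thus differed by more than 2 within the cells with H2-Aa at 100 CPM or more. These cells were not all rich in class II: H2-Aa reached 1000 CPM in all 30 Egr1-high cells but in 10 of the 13 Egr1-low cells.

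Of the 8350 genes compared, those most like Egr1 by Spearman's rho over all 75 cells included Atf3 (0.633), Nfkbiz (0.589), Fos (0.561) and Nfkbia (0.558). Ppp1r15a (0.543), Zfp36 (0.526), Kdm6b (0.467) and Ier3 (0.460) were among them too. The 75 cells share 1 sort protocol and 1 table, and rho of Egr1 with the number of genes detected was -0.243. Within the 38 Egr1-high cells Atf3 had a rho of 0.523 and Nfkbia 0.483, while Fos was at 0.155 and Ier3 at -0.0025. Within the 25 Egr1-low cells, whose Egr1 lay between 0 and 57.8 CPM, Atf3 was at 0.774. The medians there were only 5 CPM for Egr1 and 2.1 CPM for Atf3. Values this low rest on few reads, so their ranks can also follow depth. Some Egr1-low cells held other early transcripts: 7 of 25 held Fos at 1000 CPM or more, from 1177 through 2163 to 4410.4 CPM. Of these 7 cells, 6 had Btg2 and 5 had Dusp1, Zfp36 and Nfkbia each at 100 CPM or more, but Atf3 reached that level in 2, Nfkbiz and Ppp1r15a in 1 and Sertad1 in 0. The rule for choosing these 7 cells was set after the values were seen.

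The 12 cells between the limits, left out of the comparison of Egr1-high with Egr1-low cells, are given beside the groups. Their median of Nfkbia, 1445 CPM, was near the Egr1-high median of 1426 CPM. Those of Btg2 and Dusp1, 1402 and 499 CPM, also lay nearer to the Egr1-high medians of 2013 and 629 CPM than to the Egr1-low medians of 425 and 36.5 CPM. Nfkbiz, Ppp1r15a, Ier3 and Sertad1, at medians of 17.9, 4.25, 16.4 and 0.3 CPM, were instead far below the Egr1-high medians of 774, 153, 315 and 135 CPM. Fos, Atf3 and Zfp36, at 642, 73.8 and 438 CPM, lay between the medians of both groups. Junb, at 61.55 CPM, lay above the Egr1-high median of 37.5 CPM and the Egr1-low median of 0.7 CPM.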

How the data were processed

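The deposited table of the authors holds CPM with 1 decimal, covering 9235 genes and 76 libraries of 1 cell each, and every gene was above 0 in at least 6 libraries. The build mm9 and the tools HTSeq 0.6.0 and STAR 2.3.0 are given per the submitters' processing notes. Per the labels' protocols, cells were captured on a Fluidigm C1 chip, with SMARTer cDNA and Nextera XT libraries; this chemistry keeps no strand and has no molecular identifiers, so amplified copies are counted separately and genes that overlap on opposite strands cannot be told apart. Genes of multigene families, such as the MHC class II genes, can share reads.

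The CPM of 1 read was searched for near each library's smallest value above 0, as the step of which most low values are whole multiples. With it 100% of the values up to 60 reads were whole multiples within 0.051 CPM, a share that the search itself maximised. Estimated depth was 259559 to 6292959 reads (median 2125179); in a check on made libraries 10 of 11 depths came within 1%. Python 3.11.15, numpy 2.4.6, pandas 2.3.3 and scipy 1.17.1 computed differences of mean log2(CPM + 1), ratios of mean CPM, shares of pairs and exact 95% intervals. The 75 cells are 1 sample, so no test was made; doublets were not called. Symbols matched the reference names for 8378 genes, 743 were older names and 114 had no match.

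The cell groups, the 33 gene lists and the rules were chosen with earlier results of these data known. Named were Fos and Btg2, up to 6 members per list with the largest differences, the 25 highest and 15 lowest genes past the size rule and above 0 in at least 20 cells, and the 10 highest correlations with Egr1; a selection is printed, results of 1 gene are not reported here, and other genes were named after their values were seen.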

Additional observations from a re-analysis of the deposited data

How the results depend on the processing

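Cells are 1 sample, so these values describe the cells measured; low counts limit genes near 0 most. Beside 44 higher, 47 lower and 17 early genes with a median of 0.61, dividing the cells at the Egr1 median gave 26 higher and 9 early. Dividing by Fos gave 81 higher and 163 lower. A pseudocount of 10 gave 13 higher, 4 lower and 9 early with a median of 0.30. A difference of at least 1 gave 291, 518 and 26, and of at least 3 gave 12, 5 and 8. Cells with fewer genes detected (24 and 8) gave 155 higher and 309 lower, of which 26 and 23 were among the genes reported, and cells with more (14 and 17) gave 207 and 167, of which 33 and 32. Cells with H2-Aa at 100 CPM or more, a choice made after seeing the data, gave 63 higher and 180 lower, of which 30 and 32. Leaving out each cell in turn gave 39 to 48 higher, 44 to 71 lower (71 without transcriptome 52), 15 to 19 early genes and medians of 0.45 to 0.68. Thinned to 250000 reads, 40 of the 44 and 44 of the 47 genes stayed past the rule. The 48 named genes past the rule kept their direction in 575 of 575 values over 12 settings. This was largely fixed in advance, since the genes passed a rule of size in the same cells that the settings use again. The setting that counted transcriptomes 13 and 19 apart could change nothing, because both lay between the limits. A stricter comparison, with cells at 0 CPM as the low group, was not run, since 1 cell was at 0. No paired analysis was possible because the labels give 1 group.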

Other observations

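Families of genes that appeared among the genes past the size rule were counted whole, a choice made after their values were seen. Of 36 complex I subunits compared, 2 passed lower (Ndufa11 and Ndufs4), 26 had differences below 0 and the median was -0.39. Proteasome subunits, which degrade ubiquitin-tagged proteins, held 2 of 36 past the rule lower (Psma6 and Psmb3), 27 below 0 and a median of -0.83. All 6 NADPH oxidase subunits compared had differences below 0, with a median of -0.51, and 1 of them, Ncf1, passed. Of 76 ribosomal protein genes 0 passed in either direction, 46 were below 0 and the median was -0.15. Over all 8350 genes the median was -0.08, 42.9% were above 0, and 0.563% passed the rule lower.

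Among 11 early genes the median Spearman's rho over their 55 pairs was 0.254 in the Egr1-high cells and 0.301 in the Egr1-low cells. It was 0.0175 in the 12 cells between. Of the 55 pairs, 53, 54 and 29 were above 0 in these groups. Counts over pairs of other genes are not given beside them. These 11 genes were chosen after their values were seen, and within each group they share libraries and depth.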
